A study of Mus musculus with 10 samples.

Results

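The 9 genes described here encode subunits of Polycomb repressive complex 2 (PRC2): Ezh1, Ezh2, Eed, Suz12, Jarid2, Aebp2, Mtf2, Phf19 and Phf1. They were taken by symbol from a mouse RNA-seq table of 36066 genes, and all 9 passed the filter of at least 0.1 TPM (transcript abundance per length, with an equal sum in every library) in at least 2 of the 10 libraries. Phf19 was under 0.1 TPM in every stem cell library and passed only through the other libraries, where it was high. RNA was sequenced from 5 groups with 2 libraries each, all labelled strain C57BL6. ESCs were a female embryonic stem cell line from fertilized embryos, and pESCs a parthenogenetic line from activated oocytes, whose chromosomes are maternal alone. Primordial germ cell-like cells (PGCLCs) were made from each line through 2 days as epiblast-like cells and 4 days in BMP4 (500 ng/ml) with SCF at 100 ng/ml, EGF at 50 ng/ml and LIF at 1000 IU, and were sorted on SSEA1 and CD61. PGCs came from embryonic gonads of females and, by the study's methods, were sorted on SSEA1, with CD61 or on magnetic beads. Their labels give no embryonic day, so the PGC libraries may differ in age. The study describes its RNA-seq as 2 biological replicates, a term it uses for mice or for replicates of cell studies. The labels do not say that replicates came from separate cultures or animals. The p-values then measure the spread between these libraries, which may be technical.

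PRC2 places methyl groups on lysine 27 of histone H3 (H3K27me3), a mark of silenced developmental genes. EZH1 or EZH2 carries the enzyme activity, SUZ12 is the scaffold, and EED binds the mark and stimulates the enzyme. The core joins either JARID2 and AEBP2 or a single Polycomb-like protein (MTF2, PHF19 or PHF1), which bind DNA and guide the complex to CpG islands. Primordial germ cells rebuild their chromatin, and PRC2 is known to be needed in these cells.

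Libraries held 6779838 to 18572901 reads on genes, recovered from TPM and exon length, with the lowest depth in the ESC-PGCLC libraries. The 6 pluripotency markers summed to 1023 to 1558 TPM in stem cells and 132 to 213 TPM in PGCLCs and PGCs, and the 9 germ cell markers to 407 to 931 and 5457 to 7900 TPM. Nanog, Tdgf1 and Zfp42 made up most of that difference, while Sox2 went from 32.7 and 44.6 TPM in ESCs to 97.3 and 110.5 TPM in ESC-PGCLCs and 83.4 and 75.1 TPM in PGCs. Pou5f1, a pluripotency gene that germ cells also use, stood at 0.374 and 0 TPM in ESC-PGCLCs against 23.5 and 19.01 TPM in ESCs, and at 1.63 to 3.14 TPM in pESC-PGCLCs and PGCs. The 7 blood markers summed to at most 4.22 TPM in stem cells, 479 and 544 TPM in ESC-PGCLCs, 2832 and 3360 TPM in pESC-PGCLCs and 1933 and 2121 TPM in PGCs. In PGCLCs and PGCs this came from haemoglobin genes, while Ptprc and Gata1, which mark white and red blood cells, were at no more than 0.103 and 0.530 TPM in any library. Gonadal somatic markers summed to 7.03 to 9.04 TPM in stem cells and 17.2 and 20.8 TPM in ESC-PGCLCs. Their sums were 37.6 and 41.0 TPM in pESC-PGCLCs and 72.5 and 92.2 TPM in PGCs. In PGCs this came mostly from Fst (37.2 and 27.1 TPM), Wt1 (26.2 and 22.4 TPM) and Amhr2 (21.7 and 19.2 TPM). Nr5a1 was at 0 in stem cells and at 4.18 and 1.96 TPM in PGCs, and Foxl2 at 1.64 TPM or less everywhere. Fibroblast markers summed to 0.276 to 0.561 TPM in stem cells, 3.84 to 9.62 TPM in PGCLCs and 9.65 and 10.7 TPM in PGCs. Col3a1 was the highest of them in PGCLCs and PGCs, and Thy1 was at 0 in ESC-PGCLCs and PGCs. Endothelial markers summed to at most 25.3 TPM, with Cdh5 at 0 in stem cells. The part of other cells in the results below was not tested, and in such bulk samples fewer cells of a type and less RNA per cell cannot be told apart.

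Phf19 was the PRC2 gene that differed most between stem cells and germ cells. It lies on chr2:34893757-34914026 (minus strand, GRCm38) and encodes a Polycomb-like protein that binds methylated lysine 36 of histone H3. In ESCs it reached 0.0646 and 0.0835 TPM, which are 3 and 5 reads. In pESCs it was at 0 and 0.0916 TPM, or 0 and 4 reads, and 3 reads would have been 0.0677 TPM in the library at 0. These 4 libraries were at or near the limit of detection. ESC-PGCLCs held 7.13 and 9.36 TPM (171 and 192 reads), pESC-PGCLCs 11.0 and 12.4 TPM (471 and 589 reads), and PGCs 28.7 and 17.7 TPM (921 and 807 reads). No PGCLC or PGC library overlapped a stem cell library, and the germ cell groups stood in that order without overlap. Counting error alone puts the reads per depth of ESC-PGCLCs at 108 times those of ESCs (95% interval 54.5 to 253), and those of pESC-PGCLCs at 258 times those of pESCs (95% interval 100.5 to 949). Such intervals and limits cover counting error only.

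The promoters of Phf19 and Suz12 are shown because they were the only windows of the 9 genes with an exact match to the E2F motif GCGGGAAA (reverse complement TTTCCCGC), a site of the cell cycle factors E2F, and that of Eed because this gene moved the other way in ESC-PGCLCs. Each line gives the 250 bases before the RefSeq start in GRCm38.p6, 5′ to 3′ on the strand of the gene, with the motif in capitals.
Phf19 (chr2:34913977-34914226, minus strand): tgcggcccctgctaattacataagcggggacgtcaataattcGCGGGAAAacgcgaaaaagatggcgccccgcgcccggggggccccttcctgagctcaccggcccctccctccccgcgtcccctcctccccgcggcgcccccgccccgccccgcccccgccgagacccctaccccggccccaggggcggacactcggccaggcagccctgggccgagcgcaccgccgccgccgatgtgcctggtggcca
Suz12 (chr11:79992856-79993105, plus strand): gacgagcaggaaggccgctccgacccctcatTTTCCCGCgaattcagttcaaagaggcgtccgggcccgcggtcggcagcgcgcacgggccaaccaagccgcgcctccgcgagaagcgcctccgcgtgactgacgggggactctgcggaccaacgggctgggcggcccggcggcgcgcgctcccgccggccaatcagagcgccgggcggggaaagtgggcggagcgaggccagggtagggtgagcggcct
Eed (chr7:89980977-89981226, minus strand): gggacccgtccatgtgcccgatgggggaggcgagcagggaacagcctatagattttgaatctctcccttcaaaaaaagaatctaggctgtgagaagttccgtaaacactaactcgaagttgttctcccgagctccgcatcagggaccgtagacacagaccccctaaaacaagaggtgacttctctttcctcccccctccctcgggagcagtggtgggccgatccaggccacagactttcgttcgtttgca
The match begins 208 bases before the start of Phf19 and 219 bases before that of Suz12. In all, 351 of 32851 RefSeq promoter windows of 300 bases (1.07%) hold the motif on either strand. The E-box CACGTG was found in 7.15% of windows and in none of the 9 genes. Phf19 and Suz12 windows held 38 and 41 CpG dinucleotides and that of Eed 17, against a median of 7 over all windows. A match is a description of these letters and no evidence of binding.

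**Figure D1:**
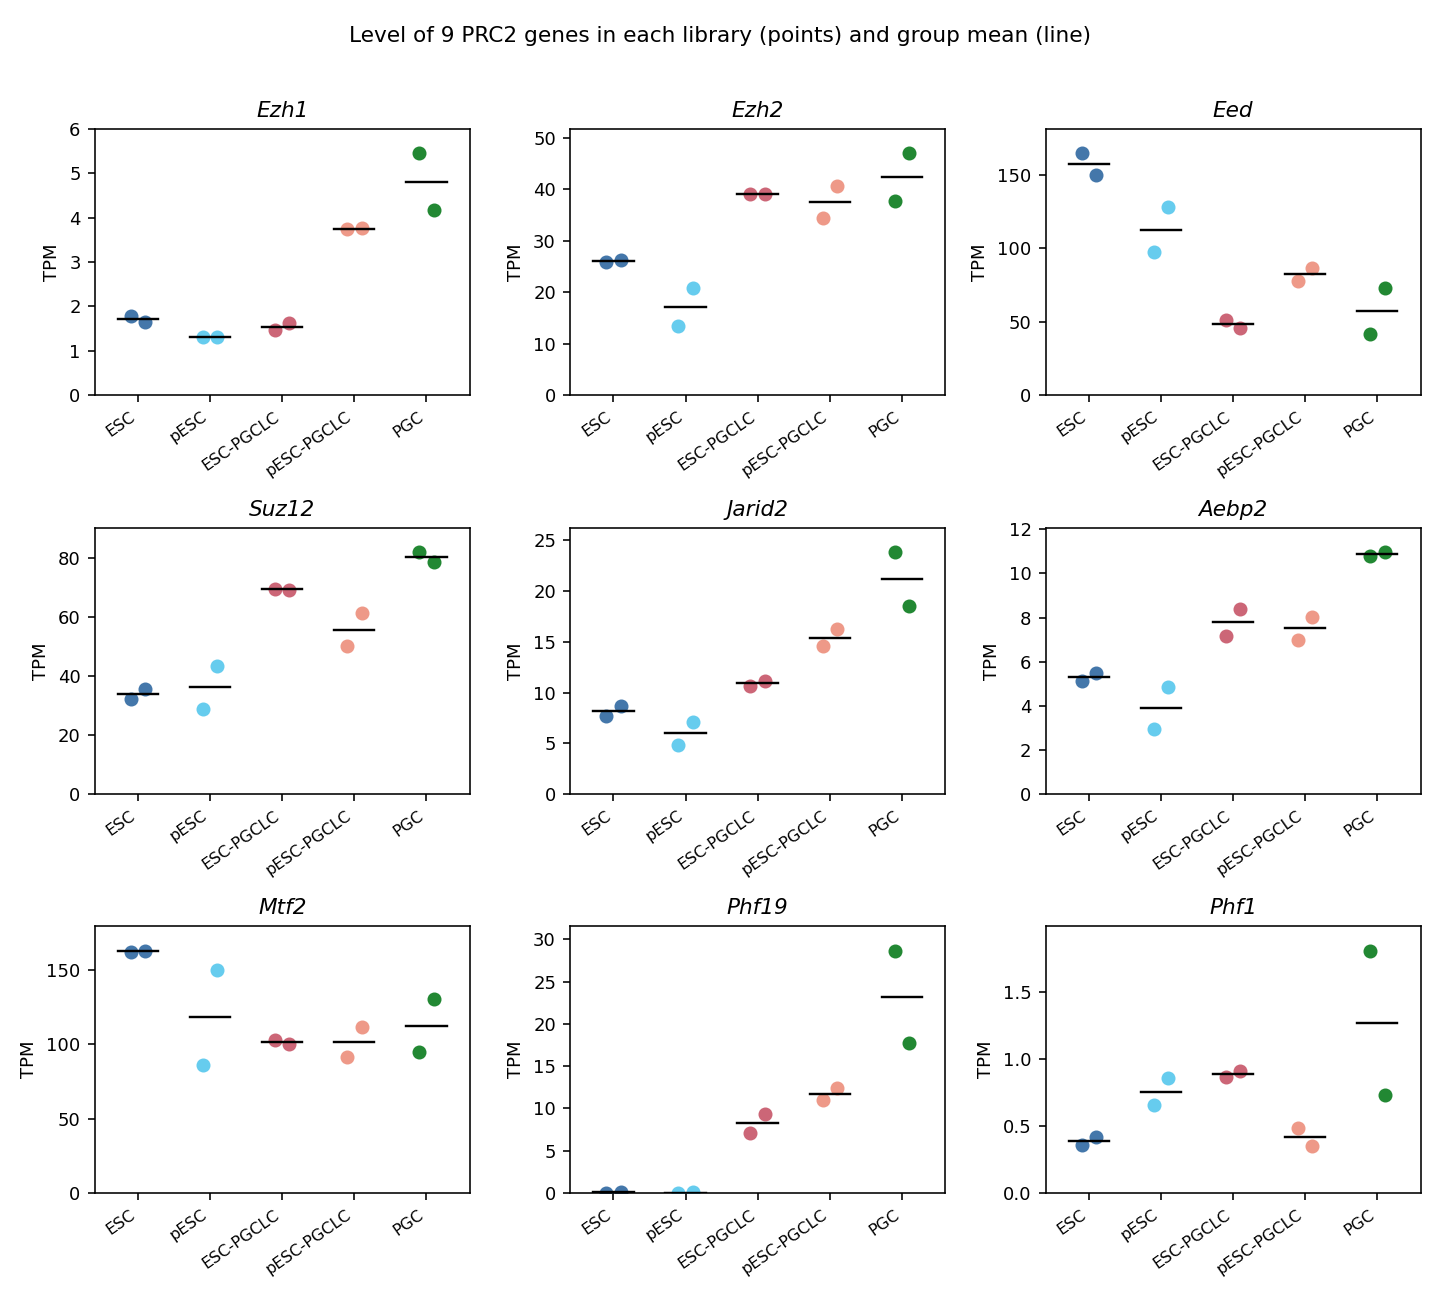
TPM of the 9 PRC2 genes (one panel each, linear axes from 0) in the 10 libraries, with points for libraries and lines for the means of 2. Phf19 lies near 0 in all 4 ESC and pESC libraries and at 7.13 to 28.7 TPM in PGCLCs and PGCs, while Eed is highest in ESCs.

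Of the enzymes, Ezh2 was the more abundant in every library. Its TPM were 25.8 and 26.3 in ESCs, 13.5 and 20.9 in pESCs, 39.2 and 39.1 in ESC-PGCLCs, 34.5 and 40.7 in pESC-PGCLCs, and 37.7 and 47.1 in PGCs. The 3 germ cell groups overlapped among neighbours, and all 6 of their libraries lay above the 4 stem cell libraries. Ezh1, which methylates more weakly and is known from non-dividing cells, had 1.79 and 1.64 TPM in ESCs, 1.32 and 1.32 in pESCs, 1.47 and 1.62 in ESC-PGCLCs, 3.74 and 3.76 in pESC-PGCLCs, and 5.46 and 4.17 in PGCs. Ezh1 was thus higher in pESC-PGCLCs and PGCs than in the other 3 groups, with no overlap. Its share of the summed Ezh1 and Ezh2 TPM was 3.62% and 3.97% in ESC-PGCLCs, against 9.78% and 8.44% in pESC-PGCLCs, 12.6% and 8.13% in PGCs and 5.87% to 8.86% in stem cells.

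Of the non-enzymatic core, Eed was lower and Suz12 higher in germ cells than in stem cells by TPM as deposited. Eed TPM were 165 and 149.7 in ESCs, 97.3 and 128 in pESCs, 51.2 and 45.6 in ESC-PGCLCs, 78.0 and 86.3 in pESC-PGCLCs, and 41.4 and 73.0 in PGCs. Suz12 TPM were 32.4 and 35.6 in ESCs, 28.8 and 43.5 in pESCs, 69.6 and 69.1 in ESC-PGCLCs, 50.0 and 61.3 in pESC-PGCLCs, and 82.0 and 78.5 in PGCs. Every stem cell library was above every germ cell library for Eed, and below every one for Suz12. From pESCs to pESC-PGCLCs 50.0% of all genes were higher and 19.1% lower without overlap. With libraries centred on their median Suz12 was at -0.10 (log2) in that comparison and Eed at -1.17. With voom these were -0.22 and -1.31, both in the same direction. The ratio of Eed to Suz12 within a library is not altered by a single scaling factor per library. It was 5.09 and 4.20 in ESCs and 3.37 and 2.94 in pESCs, but 0.737 and 0.661 in ESC-PGCLCs, 1.56 and 1.41 in pESC-PGCLCs, and 0.504 and 0.930 in PGCs. No stem cell library overlapped a germ cell library in this ratio, and pESC-PGCLCs lay between ESC-PGCLCs and stem cells. With 2 libraries against 2, the smallest p of an exact two-sided permutation test is 0.333, and these ratios were left untested.

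Jarid2 and Aebp2, whose proteins form the alternative complex without a Polycomb-like subunit, were lowest in pESCs and highest in PGCs by TPM as deposited. Jarid2 TPM were 7.73 and 8.69 in ESCs, 4.87 and 7.08 in pESCs, 10.6 and 11.2 in ESC-PGCLCs, 14.5 and 16.2 in pESC-PGCLCs, and 23.9 and 18.5 in PGCs, with no overlap between neighbouring groups. Aebp2 TPM were 5.15 and 5.50 in ESCs, 2.95 and 4.86 in pESCs, 7.17 and 8.38 in ESC-PGCLCs, 6.97 and 8.04 in pESC-PGCLCs, and 10.8 and 11.0 in PGCs. For Aebp2 the PGCLC groups overlapped each other, and the other neighbours did not. Of all genes, 50.0% were higher in PGCs than in ESC-PGCLCs without overlap. On the log2 scale Aebp2 in that comparison was at 0.44 as deposited. It was at -0.17 under quantile normalization, -0.16 with libraries centred on their median and -0.10 with voom. Jarid2 stayed above 0 there (0.35, 0.28 and 0.36). In pESCs against ESCs centring left Jarid2 at -0.08 and Aebp2 at -0.06.

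Mtf2, the main Polycomb-like gene of embryonic stem cells, had group means within 1.60-fold of each other. Its TPM were 162 and 163 in ESCs, 86.1 and 149.97 in pESCs, 103 and 100.4 in ESC-PGCLCs, 91.5 and 112 in pESC-PGCLCs, and 94.8 and 130.2 in PGCs. Apart from ESCs, which lay above all others, the groups overlapped. Phf1, the third Polycomb-like gene, stayed between 0.350 and 1.81 TPM (8 to 28 reads). Of its 3486 exon bases in GENCODE M21, 39.3% are also covered by antisense genes, Cuta among them. The steps of its TPM gave an exon length of 2429 bases, so this share may differ for the exons counted. Strand use in counting is not given in the sources used here, and how reads shared by Phf1 and these genes were counted is not known. The same holds for 2.61% to 6.93% of the exon bases of Ezh2, Eed, Suz12 and Mtf2.

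Summed by class, the Polycomb-like genes remained mostly Mtf2. Phf19 made up 0% to 0.0607% of their TPM in stem cells, 6.42% and 8.46% in ESC-PGCLCs, 10.7% and 9.99% in pESC-PGCLCs, and 22.9% and 11.9% in PGCs. Jarid2 and Aebp2 together came to 0.0793 to 0.0901 of the Polycomb-like sum in the 4 stem cell libraries, with ESCs and pESCs overlapping. The ratio was 0.160 and 0.176 in ESC-PGCLCs, 0.209 and 0.195 in pESC-PGCLCs, and 0.277 and 0.198 in PGCs. Every germ cell library was above every stem cell library, and the pESC-PGCLC and PGC ranges overlapped.

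**Figure D2:**
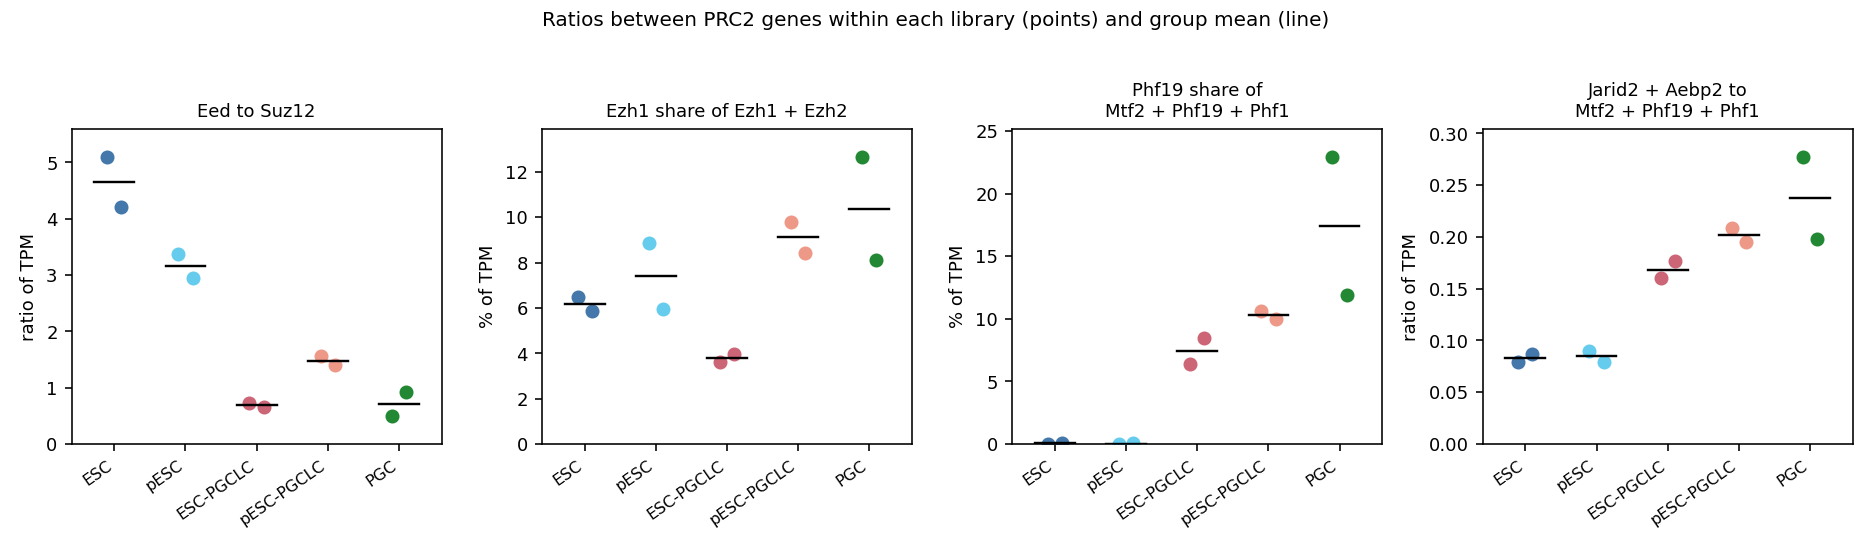
Ratios and shares of TPM between PRC2 genes within each library (points) with the mean of 2 (lines), for 5 groups. The Eed to Suz12 ratio is above 2.9 in the 4 stem cell libraries and at most 1.56 in the 6 others, and the shares of Phf19 and of Jarid2 with Aebp2 are higher in PGCLCs and PGCs.

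The differentiation of ESCs was tested with limma on log2(TPM + 1) over 27259 genes, and a gene was called at a Benjamini-Hochberg adjusted p under 0.05 with at least a 2-fold change. On this scale changes of genes near 0 TPM are understated. Of the 9 PRC2 genes, 2 rose and 1 fell from ESCs to ESC-PGCLCs, beside 29.8% of all genes called in either direction (15.3% higher, 14.5% lower). Phf19 rose by 3.10 ± 0.24 (log2 difference ± SE, adjusted p = 3.18e-05 by limma). Suz12 rose by 1.01 ± 0.20 (adjusted p = 0.00389 by limma), just past the 2-fold limit, and without ESC replicate 1 it was at 0.94. Eed fell by 1.68 on the log2 scale (SE 0.26, limma adjusted p = 0.00107). Ezh2 (0.57, 95% interval 0.08 to 1.06, adjusted p = 0.0582 by limma) and Mtf2 (-0.67, 95% interval -1.28 to -0.05, adjusted p = 0.0732 by limma) were not called. With voom Mtf2 was called lower, at -1.06 (limma adjusted p = 0.000931). Libraries of the 2 groups did not overlap for any of the 9 genes, 6 being higher and 3 lower in ESC-PGCLCs, beside 38.4% of all genes higher and 32.5% lower without overlap. The median difference was 0.45 for the 9 genes and 0.05 for all genes.

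From pESCs to pESC-PGCLCs, 4 of the 9 genes rose and none was called lower, beside 27.6% of all genes called (20.8% higher, 6.80% lower). Phf19 rose by 3.60 ± 0.24 (adjusted p = 2.54e-05 by limma), and this call held under each other scaling. Jarid2 (1.25 ± 0.20), Ezh2 (1.11 ± 0.21) and Ezh1 (1.04 ± 0.17) also rose, with limma adjusted p of 0.00137, 0.00338 and 0.00172, but these calls depended on the scale. The 9024 genes that reached 1 TPM in all 10 libraries were shifted by a median of 0.64 in this comparison. Centring each library on the median of those genes lowered every value by 0.73, and the calls of all genes went from 5681 higher and 1854 lower to 2280 and 5010. After centring Jarid2 stood at 0.52, Ezh2 at 0.38 and Ezh1 at 0.31, none of them called, and Eed (-1.17) and Phf1 (-1.04) were called lower. Suz12 (0.63 ± 0.20) and Aebp2 (0.82 ± 0.21) had limma adjusted p of 0.0336 and 0.0128 with under 2-fold change, and Suz12 was at -0.10 after centring. Before centring, Eed (-0.44) and Mtf2 (-0.17) were not called. After centring Mtf2 was at -0.90 (limma adjusted p = 0.00892), under 2-fold. In the ESC differentiation centring moved all values by 0.01, and the 3 calls stood.

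**Figure D3:**
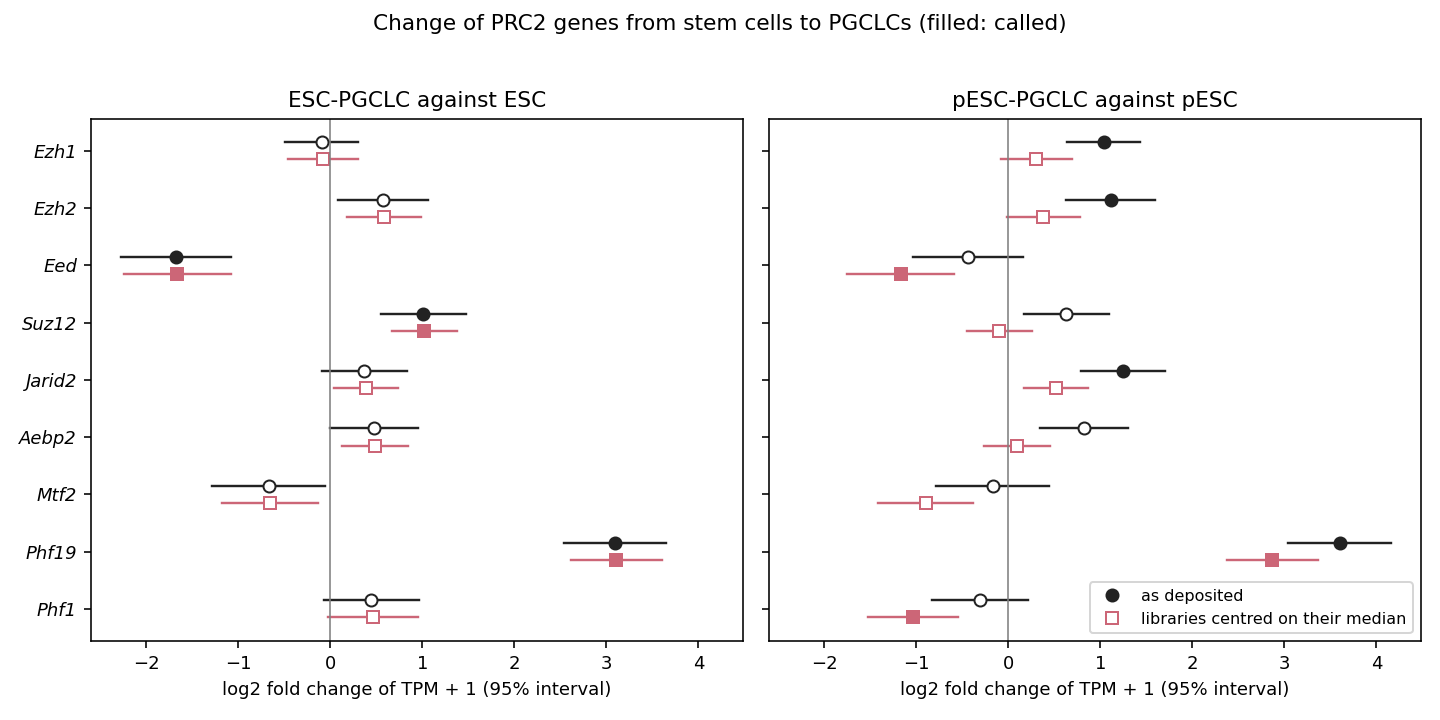
Log2 fold changes of the 9 PRC2 genes from ESCs to ESC-PGCLCs (left) and from pESCs to pESC-PGCLCs (right), with 95% intervals from limma on 10 libraries, as deposited (circles) and after centring each library on its median (squares), filled where called. Phf19 is far to the right in both panels on both scales, and all values of the right panel, Phf19 included, move left by 0.73 with centring.

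The interaction tested whether the change with differentiation differed between the parthenogenetic and the fertilized line. It is the change from pESCs to pESC-PGCLCs less that from ESCs to ESC-PGCLCs. With these groups, parthenogenetic origin cannot be told apart from other differences between the lines or their inductions. Ezh1 (1.13 ± 0.24, limma adjusted p = 0.0133) and Eed (1.24 ± 0.37, limma adjusted p = 0.0455) were called, beside 19.1% of all genes, 4236 (15.5%) higher and 961 (3.53%) lower. Ezh1 changed by 1.04 in the parthenogenetic line and by -0.10 in ESCs, and Eed by -0.44 and -1.68. Centring lowered all interaction values by 0.74 and turned the split of all calls to 1727 higher and 4062 lower. Ezh1 (0.39) and Eed (0.50) were then not called, and Suz12 (-1.12) and Phf1 (-1.498) were. Without ESC replicate 1 no PRC2 gene was called, with limma adjusted p of 0.0563 for Ezh1 and 0.149 for Eed.

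Between the parthenogenetic and the fertilized line themselves, no PRC2 gene was called. In pESCs against ESCs, 0.781% of all genes were called (45 higher and 168, or 0.616%, lower, against 161 and 30 after centring, which raised all values by 0.33), and the 9 genes ranged from -0.60 for Ezh2 (95% interval -1.09 to -0.11, adjusted p = 0.181 by limma) to 0.34 for Phf1. Ezh2 was the only PRC2 gene with an unadjusted p under 0.05. Without overlap 6 of the 9 genes were lower in pESCs, beside 31.3% of all genes, and Phf1 was higher, beside 11.7%. In pESC-PGCLCs against ESC-PGCLCs, 13.4% of all genes were called (10.3% or 2812 higher and 3.08% or 839 lower, against 1460 and 1891 after centring, which lowered all values by 0.41). Ezh1 was higher in pESC-PGCLCs by 0.90 ± 0.17 (adjusted p = 0.00753 by limma), under 2-fold, and by 0.49 after centring. Eed differed by 0.75 (95% interval 0.15 to 1.35, adjusted p = 0.0740 by limma) and Phf1 by -0.42, the lowest of the 9. In all, 3 of the 9 had an unadjusted p under 0.05 here. Ezh1, Eed, Jarid2 and Phf19 were higher and Suz12 and Phf1 lower in pESC-PGCLCs without overlap, beside 41.8% of all genes higher and 17.9% lower. After centring Eed was at 0.34, Jarid2 at 0.05 and Phf19 at 0.06. Suz12 was then at -0.73 and Phf1 at -0.83 (limma adjusted p = 0.00986 and 0.0213), both under 2-fold. The median of the 9 genes went from -0.01 to -0.42 with centring, and that of all genes from 0.12 to -0.29. The blood and gonadal marker sums given above were also higher in pESC-PGCLCs, and their part in these differences was not tested.

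Against PGCs from embryos, Ezh1 (1.18 ± 0.17, limma adjusted p = 0.00309) and Phf19 (1.36 ± 0.24, limma adjusted p = 0.00575) were higher in PGCs than in ESC-PGCLCs, beside 13.8% of all genes called (3260, or 12.0%, higher and 512, or 1.88%, lower). Jarid2 was higher by 0.89 ± 0.20 (adjusted p = 0.0131 by limma), under 2-fold. Centring lowered these values by 0.61 and turned the split of all genes to 712 higher and 2003 lower, and neither Ezh1 (0.58) nor Phf19 (0.75) was then called. A fit of these 2 groups alone called no gene of the table. In PGCs against pESC-PGCLCs no PRC2 gene was called, beside 3.67% of all genes (564, or 2.07%, higher and 436, or 1.60%, lower, and 293 and 821 after centring). Phf19 came closest, at 0.89 (95% interval 0.34 to 1.45, adjusted p = 0.0571 by limma), and without PGC replicate 2 it was called. Eed was the lowest at -0.57, and 4 of the 9 genes had an unadjusted p under 0.05. Without overlap 6 of the 9 were higher in PGCs and Eed lower, beside 37.4% and 16.6% of all genes. PGC replicates differed by up to 2.48-fold (Phf1), and by 1.76-fold for Eed and 1.62-fold for Phf19. The comparisons with PGCs share those libraries and are not independent of each other.

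The genes whose pattern over the 10 libraries was most like that of a PRC2 gene were sought among 8527 genes averaging 5 TPM or more, by the root mean square distance of log2 values centred on each gene's own mean. Suz12 was nearest to Aspm (0.07), a spindle gene, Tm7sf3 and Rest, and Ezh2 to Ss18 (0.10), Sltm and Asnsd1. Jarid2 lay nearest to Stk4, Zc3h13 and Suclg2, and Aebp2 to Hnrnpm, Pcf11 and Akap8. Ezh1 was nearest to Rbms2 (0.06), Dedd and Kdm1a, and Eed to Tmco1 (0.14), Ywhaq and Acot9. Phf19 was nearest to Wt1 (0.16), Tdrd7 (0.16) and Phf13 (0.22). Wt1 is one of the gonadal somatic markers and rose from 0.0331 TPM on average in ESCs to 7.61 in ESC-PGCLCs, 11.98 in pESC-PGCLCs and 24.3 in PGCs, while Tdrd7, a germ granule gene, went from 0.0318 to 9.14, 11.6 and 20.1 TPM. These neighbours were picked by the same values, and the germ granule gene lay as near as the gonadal one. Gonadal marker sums rose in the same group order, in cells that the study sorted on germ cell surface markers. By the study's methods, PGCLCs were sorted before they were aggregated with gonadal cells. The part of gonadal cells in the level of Phf19 was not tested.

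Of 8 further genes whose proteins join or modulate PRC2, 2 rose and 1 fell from ESCs to ESC-PGCLCs, and 3 rose and 1 fell from pESCs to pESC-PGCLCs, where centring gave 2 higher and 2 lower. Of all genes 15.3% and 14.5% were called higher and lower in the first comparison, and 20.8% and 6.80% in the second. AU022751, the older symbol of Ezhip, encodes an inhibitor of PRC2 known from gonads. It had 1 and 0 reads in ESCs and none in pESCs, 4.39 and 3.57 TPM in ESC-PGCLCs, 7.68 and 8.02 TPM in pESC-PGCLCs, and 16.2 and 9.30 TPM in PGCs. Its reads per depth in pESC-PGCLCs were at least 101-fold higher than in pESCs, taking 3 reads over the 2 pESC libraries as the limit, and in ESC-PGCLCs 186 times those of ESCs (95% counting interval 32.5 to 7458, on 1 read in ESCs). The fitted rises were 2.28 ± 0.25 and 3.15 ± 0.25 (limma adjusted p = 0.000166 and 5.06e-05). Like Phf19, it was near 0 in stem cells and present in every PGCLC and PGC library, and it passed the filter only through those libraries.

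Epop, which ties PRC2 to the elongin proteins in stem cells, went the other way. Its TPM were 3.42 and 4.11 in ESCs, 3.34 and 4.59 in pESCs, 0.454 and 0.319 in ESC-PGCLCs, 0.609 and 0.689 in pESC-PGCLCs, and 0.813 and 1.05 in PGCs. It fell by 1.78 and by 1.58 on the log2 scale in the ESC and pESC differentiations (limma adjusted p = 0.000162 and 0.000367), on 8 and 27 reads in the PGCLC groups. Lcorl, some of whose transcripts encode a PRC2 partner, rose by 2.41 ± 0.20 and 1.93 ± 0.20 (limma adjusted p = 3.89e-05 and 0.000152), from 1.53 to 2.77 TPM in stem cells to 10.4 to 14.8 TPM in PGCLCs. The calls of AU022751, Epop and Lcorl in both differentiations held under quantile normalization, centring and voom. In the interaction Lcorl was not called as deposited (-0.48). It was called lower there under quantile normalization (-1.05), centring (-1.22) and voom (-1.03).

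Rbbp4 and Rbbp7, histone-binding proteins that PRC2 shares with other complexes, differed from each other. Rbbp7 TPM were 357 and 302 in ESCs, 166 and 198 in pESCs, 286 and 302 in ESC-PGCLCs, 548 and 565 in pESC-PGCLCs, and 253 and 383 in PGCs. It rose by 1.61 ± 0.21 from pESCs to pESC-PGCLCs (limma adjusted p = 0.000499), or 0.88 and under 2-fold after centring, and was called in the interaction (1.77 ± 0.30, limma adjusted p = 0.00450, and 1.03 after centring). Rbbp4 was at 8.06 to 15.9 TPM in cultured cells and at 45.8 and 32.1 TPM in PGCs, higher than in ESC-PGCLCs by 1.498 ± 0.263 and than in pESC-PGCLCs by 1.41 ± 0.26 (limma adjusted p = 0.00557 and 0.0277), and after centring the first of these was under 2-fold. Lcor was called in no comparison on any scale, and Elob and Eloc in none as deposited. Eloc was called lower in the interaction under quantile normalization (-1.32), centring (-1.65) and voom (-1.39). It was also called lower under centring and voom from pESCs to pESC-PGCLCs (-1.07 and -1.21) and in PGCs against ESC-PGCLCs (-1.05 and -1.03). Elob was called lower in ESC-PGCLCs under voom (-1.08). In PGCs against pESC-PGCLCs Rbbp7 was not called as deposited (-0.83), and was called lower under centring (-1.03) and voom (-1.13).

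**Figure D4:**
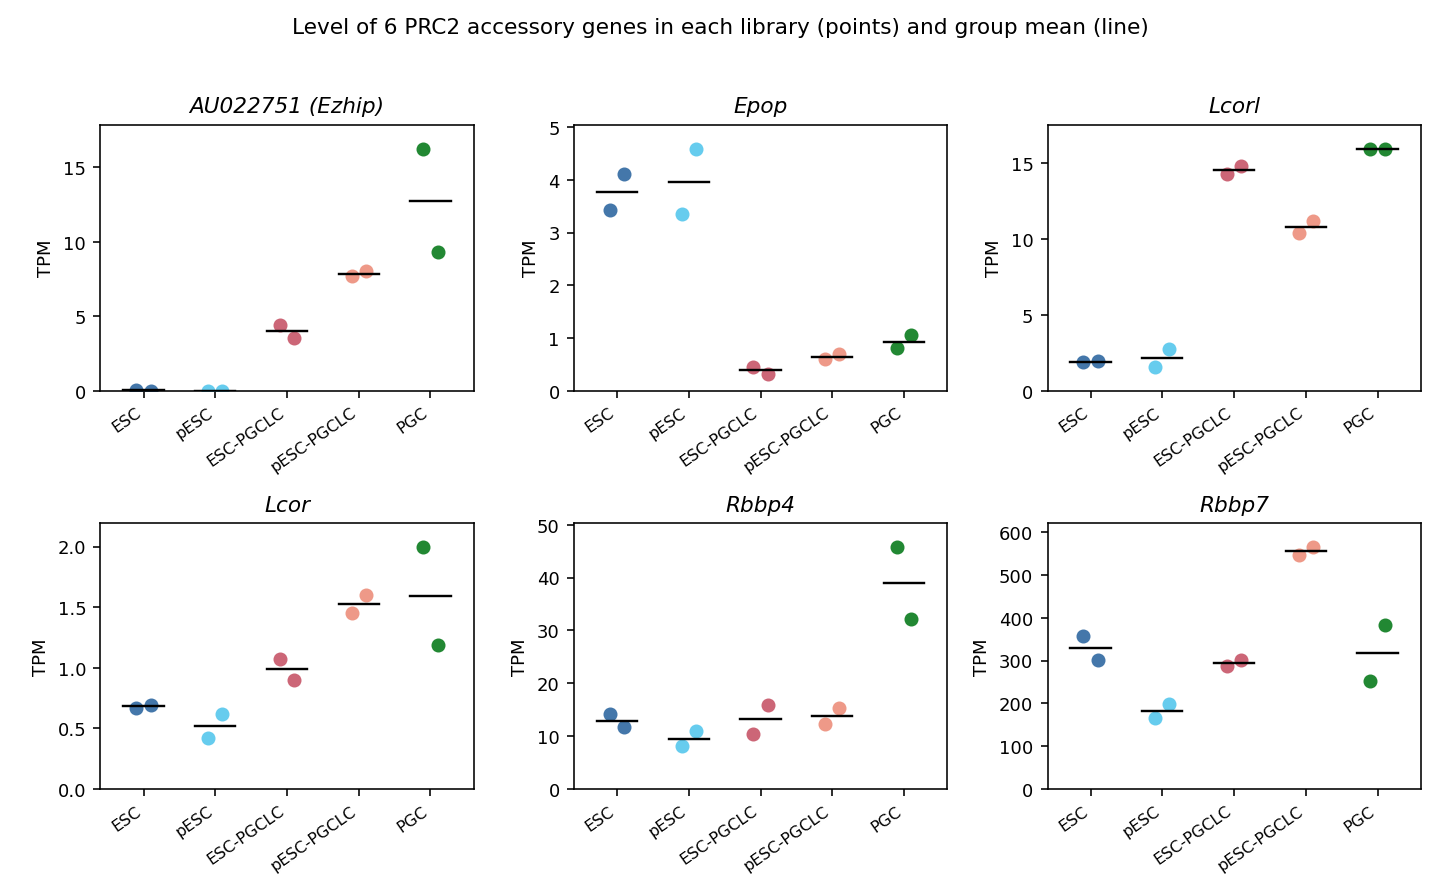
TPM of 6 of the 8 further PRC2 genes (one panel each, linear axes from 0) in the 10 libraries, with points for libraries and lines for means of 2. AU022751 lies at 0 to 0.0493 TPM in stem cells and at 3.57 to 16.2 TPM in PGCLCs and PGCs, and Epop is at 3.34 TPM or more in stem cells and at most 1.05 TPM elsewhere.

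Other genes of the Polycomb pathway were counted by lists. Of 23 genes of core and variant PRC1, complexes that ubiquitinate histone H2A, 11 rose and 1 fell in each differentiation. Of all genes, 15.3% and 20.8% were called higher. The list medians were 0.87 and 1.00, against 0.05 and 0.22 for all genes. After centring 11 and 5 rose, and the list medians were 0.89 and 0.27. Bmi1 rose from 3.03 and 2.98 to 51.3 and 51.0 TPM in ESC-PGCLCs, and Pcgf2, its relative, was at 20.2 and 30.6 TPM there against 1.77 and 1.48 TPM in pESC-PGCLCs, a difference of -3.30 ± 0.28 (limma adjusted p = 0.000248) called on every scale. Of 4 genes that remove methyl groups from H3K27 or acetylate it, 3 rose and 1 fell in ESC-PGCLCs, with Crebbp and Ep300, the acetyltransferases, at 2.09 and 1.88 and the demethylase Kdm6b at -1.51. In pESC-PGCLCs 3 rose, Crebbp by 1.42. Under quantile normalization and centring 0 rose and 1 fell there, and with voom 1 rose and 1 fell. In pESC-PGCLCs against ESC-PGCLCs 1 was called higher as deposited, while 2 were lower on each of these 3 scales. In the interaction 0 were called as deposited and 3 were lower on each of these scales. Of all genes, 1643 and 4062 were lower in the interaction under quantile normalization and centring. Of the 4 genes of the H2A deubiquitinase, none was called in ESC-PGCLCs (none with an unadjusted p under 0.05), and Bap1 and Asxl1 rose in pESC-PGCLCs. Bap1 (1.97, and 1.24 after centring) was called on every scale, whereas Asxl1 went from 1.09 to 0.43 under quantile normalization, 0.36 after centring and 0.40 with voom and lost its call.

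The list of 30 developmental regulators whose promoters are known to carry H3K27me3 in ESCs was drawn from general knowledge and not from these cells. Of its 23 tested genes, 7 rose and 2 fell in ESC-PGCLCs and 6 rose and 1 fell in pESC-PGCLCs (5 and 2 after centring), with medians of 0.20 and 0.40 beside 0.05 and 0.22 for all genes. Msx1 reached 23.8 and 25.1 TPM in ESC-PGCLCs and 11.8 and 10.9 TPM in pESC-PGCLCs, and Msx2 15.1 to 18.98 and 11.7 to 13.9 TPM, from at most 0.265 TPM in stem cells. Olig2, a neural factor, fell from 7.56 to 8.46 TPM in ESCs to at most 0.0863 TPM in ESC-PGCLCs. A listed gene silent in stem cells could be tested only if PGCLC or PGC libraries brought it past the filter. Msx1 was such a gene, with 0.105 and 0.0543 TPM in ESCs and 0.0367 and 0.0745 TPM in pESCs. The counts and medians of this list therefore favour rises. Of all genes 29.8% and 27.6% were called in these comparisons, and whether the list differs from them was not tested. Of 16 proliferation genes, 3 rose and 4 fell in ESC-PGCLCs, while 8 rose in pESC-PGCLCs and none after centring. Their part in the changes of PRC2 genes was not tested.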

How the data were processed

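Total RNA of 10 libraries was sequenced, 2 for each of 5 groups taken from the labels. The study's methods state that the authors used HISAT2 and mm10 for mapping and featureCounts for counting. The authors deposited TPM, which divides counts by gene length and scales each library to the same sum. The labels also name Bowtie2, RSEM and R 3.4.2. Labels and methods differ on library preparation. Recovered reads are TPM times the exon length of GENCODE M21 (GRCm38), rescaled per library, and 94.7% to 94.9% of values above 0 lay within 0.02 of a whole number. For 3 reads on a gene of median length this gives 0.116 to 0.338 TPM. The exon length of Phf1 was taken from its own steps, since the M21 length gave no whole reads.

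In R 4.3.3, limma 3.58.1 was fitted to log2(TPM + 1) of 27259 genes with a mean per group, 5 residual degrees of freedom and a variance trend, with Benjamini-Hochberg adjustment over all genes of a comparison. Figures used matplotlib 3.10.9. Tried besides were quantile normalization, centring on the median of the 9024 genes at 1 TPM or more in all libraries, a replicate block, voom on recovered reads with trimmed-mean factors, leaving out each library, fitting the compared groups alone, dropping the fold minimum or the filter, a 1 TPM filter, and 0.1 in place of 1 as pseudocount. The fit was tested on simulated data. Genes and lists were chosen with earlier results of these data known. All 9 genes and the further PRC2 genes are named. Of the other lists, at most the 2 called genes that rose most and the 2 that fell most in a comparison are eligible to be named, if they average 1 TPM or more in the higher group. Genes of like pattern were sought for the 7 PRC2 genes whose group means span at least 1 log2 unit. Promoters are RefSeq windows of GRCm38.p6.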

Additional observations from a re-analysis of the deposited data

Results flagged for a closer look

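Ezh1 and Eed stood out because their change with differentiation differed between the parthenogenetic and the fertilized line when that difference itself was tested. The interaction was 1.13 for Ezh1 and 1.24 for Eed on the log2 scale (limma adjusted p = 0.0133 and 0.0455). These are 2 of 9 PRC2 genes, beside 19.1% of all genes called in the interaction. Leaving out 1 library left 0 or 1 PRC2 gene called in 7 of 8 cases and 3 in the other. Both PGCLC libraries of the parthenogenetic line were above both of the ESC line for each gene, as they were for 41.8% of all genes. After centring each library on its median the values were 0.39 and 0.50 and neither was called, and the cause of the shift between libraries was not tested.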

How the results depend on the processing

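The calls of Phf19 in both differentiations and of Eed in ESC-PGCLCs held under every alternative run. Suz12 in ESC-PGCLCs was called except under voom (0.65) and without ESC replicate 1. From pESCs to pESC-PGCLCs the number of PRC2 genes called went from 4 to 1 under quantile normalization, and Suz12 was at -0.10 with centring and -0.22 with voom. Mtf2 there ranged from -0.56 to 0.23 without a replicate, being above 0 without pESC replicate 2. With all libraries Mtf2 was at -0.38 under quantile normalization, -0.90 with centring and -1.04 with voom. For PGCs against ESC-PGCLCs the number called went from 2 to 0 in a fit of the compared groups alone, 0 under quantile normalization, 0 with centring and 1 with voom, and Ezh2 was at -0.38, -0.50 and -0.48 under quantile normalization, centring and voom. Leaving out a replicate, Ezh2 ranged from -0.052 (without PGC replicate 2) to 0.26. In pESC-PGCLCs against ESC-PGCLCs Ezh1 made 1 call when 0.1 was added in place of 1, and 1 call when no fold minimum was set. In the interaction 1 was called without a filter and 0 to 3 without a replicate, 0 being without ESC replicate 1. In PGCs against pESC-PGCLCs 0 to 1 were called without a replicate, 1 being without PGC replicate 2. The interaction calls of all genes went from 5197 to 3305 without ESC replicate 1. The cause was not tested in any of these.

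Calls over all genes moved too. In pESCs against ESCs 213 genes were called, 0 in a fit of the 2 groups alone, 402 with the filter of 1 TPM, 134 without a filter, 122 under quantile normalization, 409 with voom and 30 (without ESC replicate 1) to 953 (without pESC replicate 2) when a replicate was left out. In PGCs against pESC-PGCLCs 1000 became 0 in the groups alone, 631 without a filter, 1787 with voom, 2438 without a fold minimum and 34 (without pESC-PGCLC replicate 2) to 1966 (without PGC replicate 2) when a replicate was left out. In PGCs against ESC-PGCLCs 3772 became 0 in the groups alone, 1906 under quantile normalization, 8471 without a fold minimum and 6140 with 0.1 as pseudocount. Without a fold minimum 12637 genes were called in ESC-PGCLCs against ESCs, 12160 in pESC-PGCLCs against pESCs and 6496 in pESC-PGCLCs against ESC-PGCLCs.

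Replicate numbers recur across groups, but deviations of same-numbered libraries correlated at -0.09 to 0.35, so the numbers were not taken as pairs. With a replicate block the numbers of PRC2 genes called stayed at 0, 0, 3, 4, 2, 0 and 2, and the genes called in pESCs against ESCs went from 213 to 78. Of 376 alternative values for 30 fold changes, 318 kept direction and side of the threshold, 16 newly passed it, 35 lost it and 7 changed sign. Genes with few reads, such as Phf1 and Phf19 in stem cells, are limited by depth.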
